A study of Mus musculus with 2 samples.

Results

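A set of 10 genes that govern the balance between cell division and its arrest was followed in MIN6 cells at a low and a high glucose concentration: the pocket protein genes Rb1, Rbl1 and Rbl2, the E2F genes E2f1, E2f2, E2f3 and E2f8, and Trp53, Mdm2 and Cdkn1a of the p53 pathway. They were chosen by gene symbol, each matched 1 row of both deposited tables, and they make up 10 of 55466 listed genes. MIN6 is a mouse insulinoma line that stands in for beta cells of the pancreatic islet. All cells stood for 0.5 h at 2.8 mM glucose in a buffered salt solution before 1 h at 2.8 mM (the hypoglycemic condition) or at 25 mM (the hyperglycemic condition). Each condition has 1 library, so no value has a replicate error and no difference could be tested. Pairs of values below give the library at 2.8 mM (low glucose) first and the library at 25 mM (high glucose) second.

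The line descends from insulinomas of mice in which the insulin promoter drives the large T antigen of the virus SV40. T antigen binds the pocket proteins, which otherwise hold E2F transcription factors inactive, and it binds p53, the transcription factor encoded by Trp53. E2F factors turn on genes of DNA synthesis, and p53 turns on Cdkn1a, whose product p21 inhibits cyclin-dependent kinases, and Mdm2, whose product marks p53 for destruction. T antigen acts on these factors as proteins, whereas the values below are RNA levels, and the viral transcript was not analysed here.

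The labelled cell type was checked first. Of 15 beta-cell markers, 13 had a mean of at least 1 FPKM, led by Ins2 at 60328 and 50846 FPKM (fragments scaled to transcript length and to library size), whereas Slc2a2 and Ucn3 were below 1 FPKM in both. None of 9 acinar and 8 stromal markers reached a mean of 1 FPKM, with sums of 0.805 and 0.0664 FPKM for acinar and 0.424 and 0.180 FPKM for stromal genes. Of the 6 other islet markers only Gcg passed that mean, at 2804 and 2764 FPKM. Of 6 ductal markers 3 passed it, with sums of 394 and 411 FPKM that were almost all Spp1 and with Krt19, Sox9 and Cftr listed at 0. Of 8 endothelial and leukocyte markers 2 passed it, Cd68 and Cd79a, with sums of 6.12 and 5.29 FPKM and with Pecam1 and Ptprc listed at 0. The step between low values corresponded to 19660000 fragments at 2.8 mM and 16780000 at 25 mM.

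Several of the genes are known both to act in these pathways and to answer to them, so the letters around their starts are shown where an E2F or a p53 motif was found. The 4 E2F motifs TTTCGCGC, TTTGGCGC, TTTCCCGC and TTTGCCGC and a p53 core of CATG, any 6 bases and CATG were searched on both strands of RefSeq windows (GRCm38.p6) that run from 250 bases before a gene's start to 50 after it. All members but Rb1 had windows, 12 in all. That of E2f1 is set on a start 466 bases past the 5′ end of the GENCODE gene and lies wholly inside the gene, so the bases before that end were not searched. An E2F match was found in 3 of the 12 and the p53 core in 1, against 2.26% and 0.712% of all 32851 windows. Capitals mark the match, and each sequence reads 5′ to 3′ on the gene's own strand.
Rbl1, chr2:157204535-157204634, minus strand: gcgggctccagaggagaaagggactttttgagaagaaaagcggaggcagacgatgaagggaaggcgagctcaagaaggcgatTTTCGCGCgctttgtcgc
E2f3, chr13:29986064-29986163, minus strand: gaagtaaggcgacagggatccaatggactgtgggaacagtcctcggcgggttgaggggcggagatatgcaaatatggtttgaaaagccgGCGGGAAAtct
E2f2, chr4:136172304-136172323, plus strand: ggcatatagTTTGGCGCtaa
Cdkn1a, chr17:29090879-29090978, plus strand: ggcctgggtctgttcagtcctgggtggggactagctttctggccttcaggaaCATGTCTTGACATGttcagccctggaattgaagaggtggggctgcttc

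The Rbl1 match began 18 bases before the gene's start, and that of E2f3, which lies on the opposite strand, began 11 bases before it. The E2f2 match began at base 40 from the RefSeq start. That start and the match both lie before the 5′ end of the GENCODE gene, at 136172394. The Cdkn1a match began 48 bases before the upstream of its 2 RefSeq starts, which lies 3 bases past the 5′ end of the GENCODE gene, and the other start lies 2793 bases past that end. These matches describe letters in a window; binding was not measured.

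All 10 genes were detected, from about 7 to 108 FPKM, and all stood at nearly the same level at both glucose concentrations. The log2 change is that of FPKM + 1 in high over low glucose, and it ran from -0.22 for Mdm2 to 0.23 for E2f2, with a median of 0.05 beside -0.02 over the 12694 genes with a mean of at least 1 FPKM. Of the 10, 8 were higher and 2 lower at 25 mM, whereas over the 12694 genes 45.6% were higher. The 8 include Rb1 and Cdkn1a, each with a log2 change of only 0.01. In bulk RNA, a shift in the share of cells at some stage of the cycle and a shift in RNA per cell cannot be told apart. None was at least 1.5-fold apart in either direction. Over all 12694 genes, 1.95% were at least 1.5-fold higher at 25 mM and 2.51% at least 1.5-fold lower, so a count of 0 among 10 is near the background.

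**Figure D1:**
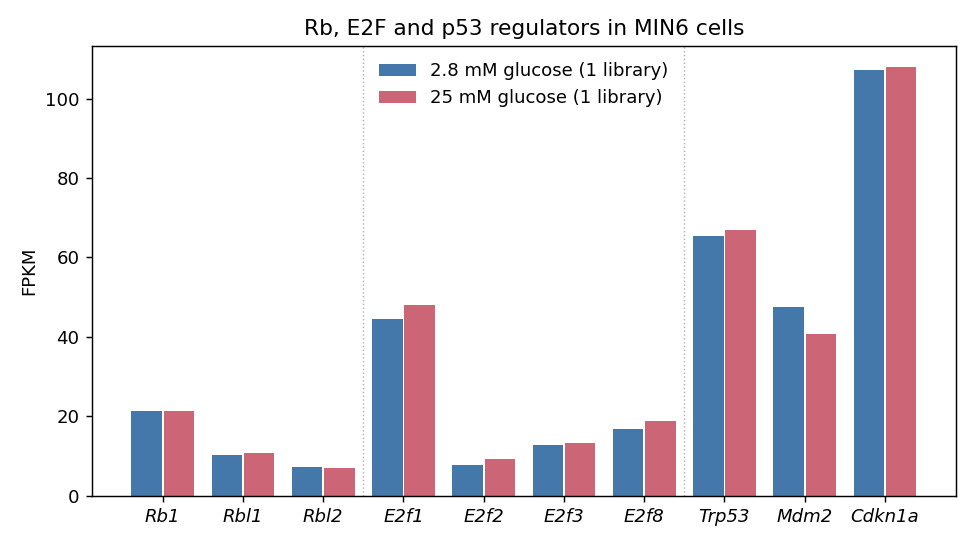
FPKM (vertical axis) of the 10 genes in the library at 2.8 mM glucose (blue) and at 25 mM (red), 1 library each, with no error bars because there were no replicates. Dotted lines part the pocket protein, E2F and p53 pathway genes; the bars of a pair are close in height, with Mdm2 lower at 25 mM (47.5 and 40.7 FPKM) and E2f1 higher (44.5 and 48.0 FPKM).

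Among the pocket proteins, Rb1 was the most abundant. Rb1, the retinoblastoma gene (ENSMUSG00000022105, GRCm38 chromosome 14, 73183673 to 73325822, minus strand, 27 exons in its longest coding transcript), measured 21.2 FPKM in low and 21.4 FPKM in high glucose (log2 change 0.01). Rbl1, which encodes p107 and is itself a known E2F target (ENSMUSG00000027641, chromosome 2, 157145893 to 157204534), was at 10.2 and 10.7 FPKM (0.07). Rbl2, which encodes p130, the pocket protein typical of resting cells (ENSMUSG00000031666, chromosome 8, 91070057 to 91123844), was at 7.16 and 6.98 FPKM (-0.03). Thus Rb1 supplied 55.0% of the summed FPKM of the 3 genes at 2.8 mM and 54.7% at 25 mM. The sign of the Rbl2 value is not stable, since it became 0.03 when the libraries were scaled to an equal FPKM sum and 0.01 with a rescaling that left out mitochondrial and the 10 most abundant genes.

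The activating E2F genes each had a slightly higher value at 25 mM, which for E2f3 was within the counting error given below. E2f1, the best known activator of the G1 to S transition (ENSMUSG00000027490, chromosome 2, 154559407 to 154569892), measured 44.5 and 48.0 FPKM (log2 change 0.11). E2f2 (ENSMUSG00000018983, chromosome 4, 136172394 to 136196057) was at 7.74 and 9.26 FPKM, and its log2 change of 0.23 was the highest of the 10. E2f3 (ENSMUSG00000016477, chromosome 13, 29906575 to 29986063) was at 12.6 and 13.3 FPKM (0.07). E2f1 held 68.6% of the summed FPKM of the activators at 2.8 mM and 68.0% at 25 mM. The deposited E2f3 value sums over its transcripts, so its long and short isoforms, which start at different promoters, are not told apart.

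E2f8 encodes an atypical E2F that represses E2F targets, is induced by E2F itself and needs no DP partner. It measured 16.7 FPKM in low and 18.7 FPKM in high glucose, a difference of 0.16 on the log2 scale (ENSMUSG00000046179, chromosome 7, 48866429 to 48881596). E2f7, its closest relative, was lower, at 3.85 and 4.28 FPKM (0.12). E2f8 stood at 25.7% of the summed activator FPKM at 2.8 mM and 26.5% at 25 mM. The atypical repressor and the activators were thus higher at 25 mM in almost the same proportion.

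Of the p53 pathway genes, Mdm2 was the one that stood lower at 25 mM. Trp53 (ENSMUSG00000059552, chromosome 11, 69580359 to 69591873) measured 65.3 FPKM in low and 67.0 FPKM in high glucose (log2 change 0.04). Mdm2, the gene of the ubiquitin ligase of p53 (ENSMUSG00000020184, chromosome 10, 117688875 to 117710758), measured 47.5 and 40.7 FPKM, and its log2 change of -0.22 was the lowest of the 10. Cdkn1a (ENSMUSG00000023067, chromosome 17, 29090976 to 29100727) was at 107 and 108 FPKM (0.01), above 91.6% of the 12694 genes at 2.8 mM and 91.7% at 25 mM. Both Mdm2 and Cdkn1a are p53 targets. Here Mdm2 was lower at 25 mM, whereas Cdkn1a was at nearly the same level in both libraries.

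The order of the 10 genes by FPKM was nearly the same in the 2 libraries. It ran Cdkn1a, Trp53, Mdm2, E2f1, Rb1, E2f8, E2f3, Rbl1, E2f2 and Rbl2 at 2.8 mM, and 8 of the 10 held the same place at 25 mM. The other 2 were neighbours that changed places, with Mdm2 above E2f1 at 2.8 mM and below it at 25 mM. Without replicates, it could not be assessed whether neighbours such as E2f2 and Rbl2 differ beyond the spread between cultures.

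Ratios within a library do not depend on how the libraries are scaled to each other. The summed FPKM of E2f1, E2f2 and E2f3 was 64.9 at 2.8 mM and 70.6 at 25 mM, and that of the 3 pocket protein genes was 38.5 and 39.1. The ratio of activator to pocket protein transcripts was therefore 1.68 at 2.8 mM and 1.81 at 25 mM. The ratio of Mdm2 to Trp53 was 0.727 and 0.608, and that of Cdkn1a to Trp53 was 1.64 and 1.61. On the log2 scale these ratios differed between the libraries by 0.10, -0.26 and -0.03, so the Mdm2 to Trp53 ratio differed most of the 3.

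The depth behind each value was estimated from the fitted fragment totals and the annotated lengths of the coding transcripts. The smallest estimates were those of Rbl2, about 593 to 652 fragments at 2.8 mM and 496 to 546 at 25 mM, and E2f2 rested on about 677 and 694. Mdm2 rested on about 2621 to 2664 and 1932 to 1964 fragments. Cdkn1a was the least certain, at 1335 to 3776 and 1182 to 3277 fragments, because its coding transcripts run from 922 to 2080 nt. Exact Clopper-Pearson 95% intervals of the ratio were taken from the lower estimate, without a pseudocount. They are approximate and describe counting error between these libraries, not variation between cultures.

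On that scale the interval of the log2 ratio lay above 0 for E2f1 (0.02 to 0.20), E2f2 (0.10 to 0.41) and E2f8 (0.04 to 0.30), and below 0 for Mdm2 (-0.31 to -0.14). It included 0 for the other 6, such as Rb1 (-0.09 to 0.11), E2f3 (-0.05 to 0.21), Trp53 (-0.06 to 0.13) and Cdkn1a (-0.11 to 0.12). On the deposited scaling, intervals above 0 were thus found for 3 of 10 genes and below 0 for 1 of 10. Scaling to an equal FPKM sum raises every log2 ratio alike, and the intervals were not recomputed for it. The lower ends for E2f3, Rbl1 and Trp53 lay at -0.05, -0.06 and -0.06, so which genes clear 0 depends on the scaling. Among 362 single-transcript protein-coding genes in the same range of levels, 14.1% had an interval above 0 and 15.7% one below 0. Many of those genes thus also differed by more than counting error. The members have from 2 to 10 annotated transcripts each, so the 2 sets are not alike in how fragments are divided among isoforms. The spread across genes at a like level was wider than these differences. For protein-coding genes within 1.5-fold of the mean FPKM of E2f2, the central 95% of log2 ratios ran from -0.57 to 0.44, around its 0.26. For those like E2f8 it ran from -0.42 to 0.31 around 0.17, for those like E2f1 from -0.31 to 0.27 around 0.11, and for those like Mdm2 from -0.31 to 0.27 around -0.22.

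**Figure D2:**
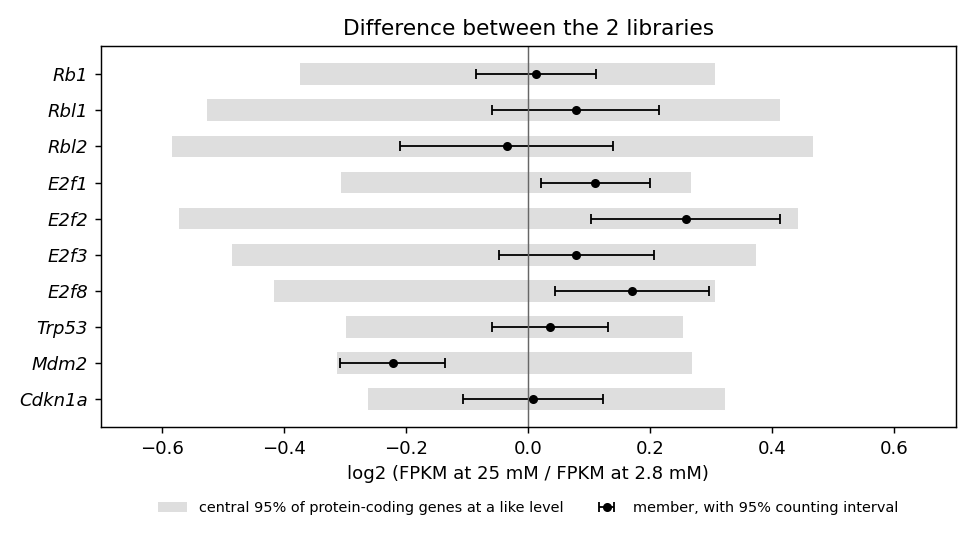
Log2 ratio of FPKM at 25 mM to FPKM at 2.8 mM, without a pseudocount (horizontal axis), for each of the 10 genes (points, 1 library per concentration), with the approximate 95% counting interval (bars) and the central 95% of protein-coding genes within 1.5-fold of the same mean FPKM (grey). Every point lies inside its grey range, and the bars of E2f1, E2f2, E2f8 and Mdm2 do not reach 0 on the deposited scaling.

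The stretches that these genes share with other annotated genes differed in length. The percentage of the 31-mers of the longest transcript that occur in transcripts of other genes was 0% for Rbl1, E2f2 and E2f3, and 0.549% for Mdm2, 1.66% for Rb1 and 2.08% for E2f1. It was 9.49% for Trp53, with the pseudogene Trp53-ps sharing most among the other genes, 11.3% for Cdkn1a, 11.9% for E2f8 and 13.4% for Rbl2. The longest Trp53 transcript has 3275 nt and its longest coding one 1867 nt, so the share for the coding transcripts of Trp53 was not measured. Exons of Rbl2 overlap those of Aktip on the opposite strand, over 9.17% of the exonic bases of Rbl2, and Aktip was at 24.3 and 28.1 FPKM. Exons of Rb1 overlap those of Rcbtb2 (19.4 FPKM in low glucose) over 8.11% of its exonic bases, and those of E2f8 overlap Gm2788 (0.877 and 0.744 FPKM) over 11.2%. No source used here states strandedness, so reads of these stretches cannot be told apart, and their part in the values was not tested.

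The relatives of the 10 genes placed them in their families. E2f4, the main E2F partner of p107 and p130 in repression, was at 44.9 and 50.2 FPKM (0.16), as abundant as E2f1. E2f6, a repressor that does not bind pocket proteins, was at 52.3 and 50.7 FPKM (-0.04), and E2f5 was at 4.23 and 4.42 FPKM (0.05). The dimer partner genes were both lower at 25 mM, with Tfdp1 at 72.8 and 66.8 FPKM (-0.12) and Tfdp2 at 34.5 and 27.0 FPKM (-0.34). Among the p53 relatives, Trp73 was at 0.399 and 0.143 FPKM and Trp63 was listed at 0 in both, so Trp53 was the only one of the family listed above 1 FPKM. Over the 6 other E2F and DP genes, 3 were higher and 3 lower, and 0 were 1.5-fold apart, which is near the background share given above. Their median log2 change of 0.00 turned to -0.01 with a pseudocount of 5 and to -0.08 among genes with a mean of at least 5 FPKM. Tfdp1 shared 30.1% of its 31-mers with other genes (Gm7390).

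**Figure D3:**
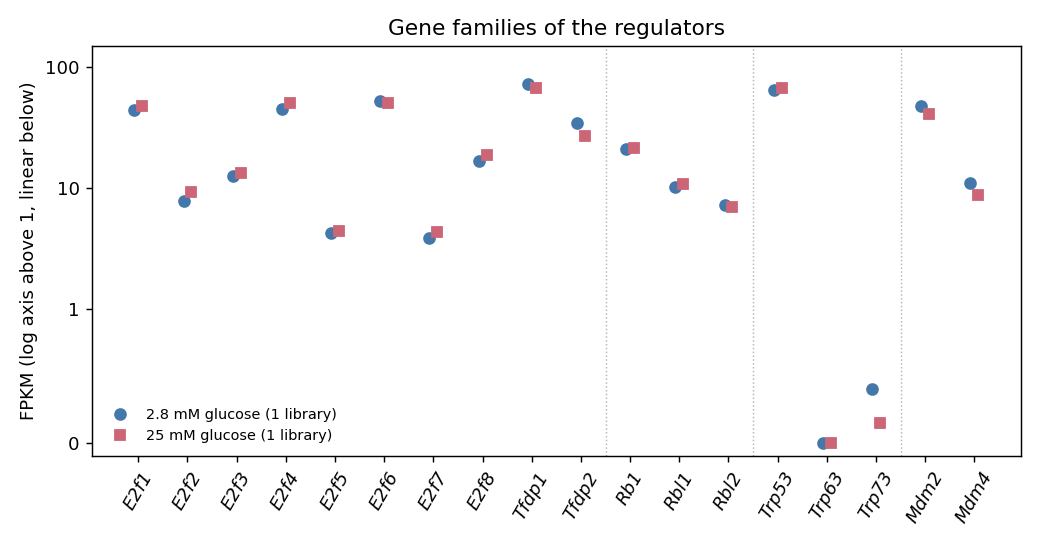
FPKM (vertical axis, logarithmic above 1 and linear below) of E2F and DP, pocket protein, p53 and Mdm family genes in the library at 2.8 mM (blue circles) and at 25 mM (red squares), 1 library each. E2f1, E2f4 and E2f6 lie close together near 50 FPKM, E2f5 and E2f7 near 4 FPKM, and Trp63 and Trp73 below 1 FPKM.

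Partners of the pocket proteins were present at both concentrations. The MuvB complex joins p130 and E2F4 to form the repressive DREAM complex in resting cells and joins B-Myb and FoxM1 in dividing ones. Of 8 such genes, 5 were higher and 3 lower, with a median of 0.05. Lin37, a MuvB subunit gene, was at 13.8 and 8.56 FPKM (-0.63), and it shared 13.1% of its 31-mers with Gm8802. On the FPKM + 1 scale, it was the only gene of the 7 lists around the members with a mean of at least 1 FPKM that was 1.5-fold apart. The shares over all 12694 genes were 1.95% higher and 2.51% lower. The other extremes were Rbbp4 at 88.3 and 105 FPKM (0.25), Lin52 at 7.68 and 8.37 FPKM (0.11) and Mybl2, which encodes B-Myb, at 6.83 and 6.09 FPKM (-0.14).

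Chromatin cofactors of the pocket proteins showed no common direction. Of 14 genes, 13 had a mean of at least 1 FPKM, 7 of them higher and 6 lower, with a median of 0.01. The highest were Smarca2, an ATPase gene of the SWI/SNF remodelling complex, at 125 and 146 FPKM (0.22) and the histone methyltransferase gene Suv39h2 at 7.90 and 9.01 FPKM (0.17). The lowest were Kmt5b, another histone methyltransferase gene, at 20.7 and 17.3 FPKM (-0.24) and the corepressor gene Sin3b at 113 and 105 FPKM (-0.12). Skp2, the gene of a ubiquitin ligase subunit that binds the Rb protein, was listed at 0 in both. An exact 0 can be a failed estimate, so it does not show that the RNA was absent.

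The kinases that phosphorylate the pocket proteins, and the inhibitors of those kinases, were likewise at similar levels. Of 15 genes, 12 had a mean of at least 1 FPKM, 6 higher and 6 lower, with a median of 0.02. Cdk4 was at 258 and 266 FPKM (0.04), with 31.3% of its 31-mers shared with other genes, whereas its partner gene Ccnd1 was at 0.594 and 0.683 FPKM. Ccnd2, also a D-type cyclin gene, was at 119 and 126 FPKM (0.09), and Cdk6 was at 0.0181 and 0.0317 FPKM; both were named after their values were seen. Cdkn2a, the locus of the Cdk4 inhibitor p16 and of the Mdm2 inhibitor p19Arf, was at 161 and 157 FPKM (-0.03), and its value does not part these products. The extremes were Ccne2 (47.2 and 51.0 FPKM, 0.11), Ccna2 (86.9 and 92.7 FPKM, 0.09), Ccnd3 (9.54 and 8.84 FPKM, -0.10) and Ccne1 (14.3 and 13.1 FPKM, -0.12).

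Known E2F targets were all present, and none was 1.5-fold apart. Over all 12694 genes, 1.95% were at least 1.5-fold higher and 2.51% at least 1.5-fold lower, so a count of 0 among 32 is near the background. All 32 listed targets, mostly genes of DNA replication and nucleotide synthesis, had a mean of at least 1 FPKM, from 4.58 to 514 FPKM at 2.8 mM. Of these, 13 were higher and 19 lower, so 40.6% were higher, with a median of -0.04. Both values are near the background of all 12694 genes, of which 45.6% were higher, with a median of -0.02. The median became 0.03 and 0.00 when the libraries were scaled to an equal FPKM sum, with and without mitochondrial and the 10 most abundant genes, so its direction is not fixed. The highest was Rrm2, for a ribonucleotide reductase subunit, at 37.7 and 43.4 FPKM (0.20). The lowest were Orc1, for a subunit of the origin recognition complex, at 4.58 and 3.21 FPKM (-0.41) and the checkpoint kinase gene Chek1 at 32.1 and 27.7 FPKM (-0.21).

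Relatives and regulators of p53 were mostly lower at 25 mM in the values as deposited. Of 23 listed, 21 had a mean of at least 1 FPKM. Of these, 5 were higher and 16 lower, with a median of -0.07. Over all 12694 genes 45.6% were higher. These counts rest on the deposited scaling. After scaling to an equal FPKM sum the median was -0.01, beside 0.04 over all genes. Mdm4, whose product binds and restrains p53 together with Mdm2, was at 11.0 and 8.80 FPKM (-0.29). Trp53bp1, for a DNA damage response protein that binds p53, was at 28.3 and 23.1 FPKM (-0.28). At the other end were Kat5, for the acetyltransferase Tip60, at 25.7 and 33.5 FPKM (0.37) and Ppp1r13l, for the p53 inhibitor iASPP, at 4.01 and 6.09 FPKM (0.50). Ppp1r13l was less than 1.5-fold apart on the FPKM + 1 scale but past it on FPKM itself. The ratio of Mdm4 to Mdm2 was 0.232 at 2.8 mM and 0.216 at 25 mM. Mdm4 shared 27.6% of its 31-mers with other genes, mostly Mdm4-ps, and Trp53bp1 shared 21.3% with Tubgcp4.

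Targets of p53 other than Mdm2 and Cdkn1a were split in direction. Of 32 genes, 26 had a mean of at least 1 FPKM, 14 higher and 12 lower, with a median of 0.01 that was -0.04 among those with a mean of at least 5 FPKM. Bax, for a pore-forming apoptosis protein, was at 134 and 129 FPKM (-0.05) and Ccng1, the cyclin G1 gene, at 14.4 and 15.7 FPKM (0.11). The lowest were the kinase gene Plk3 at 28.1 and 21.3 FPKM (-0.39) and Tigar, for a phosphatase that restrains glycolysis, at 17.3 and 14.2 FPKM (-0.27). The highest were Tnfrsf10b, for a death receptor, at 0.989 and 1.32 FPKM (0.22) and Gtse1, for a microtubule-binding protein that restrains p53, at 10.3 and 12.0 FPKM (0.20). Below a mean of 1 FPKM were 6 targets, named after their values were seen: Pmaip1 and Fas, which were listed at 0 in both, and Phlda3, Eda2r, Sfn and Gdf15. The values of 0 carry the same limit as that of Skp2.

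**Figure D4:**
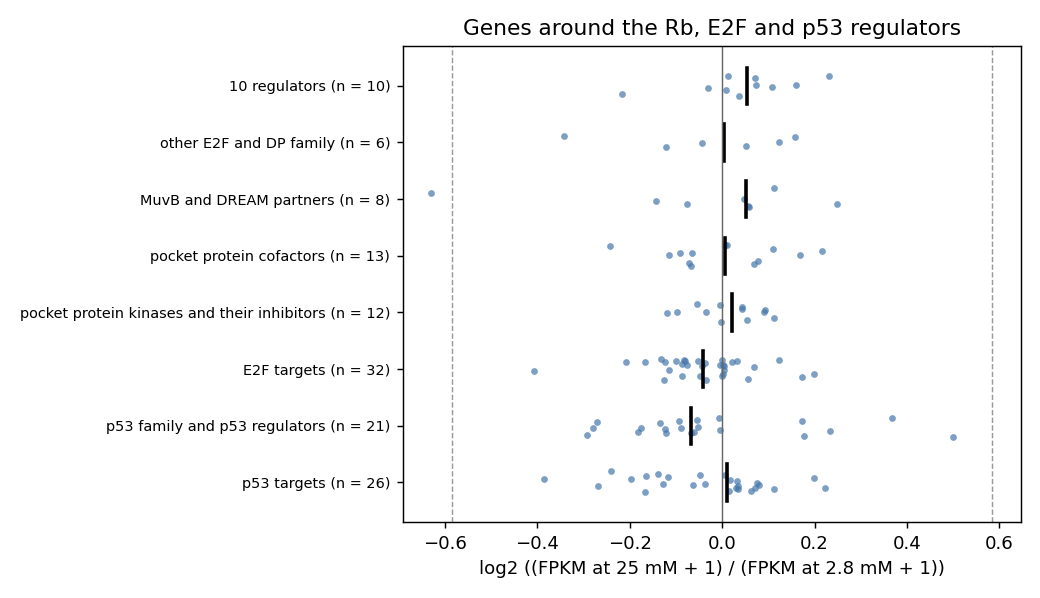
Log2 change of FPKM + 1 in high over low glucose (horizontal axis) of each gene with a mean of at least 1 FPKM (points, 1 library per concentration) in the 10 regulators and 7 lists around them; black bars are list medians and dashed lines mark 1.5-fold. Only Lin37 lies beyond a dashed line, and the medians run from -0.07 for p53 family and regulator genes to 0.05 for the 10 regulators.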

How the data were processed

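MIN6 RNA was sequenced from 1 library at each glucose concentration. The authors deposited FPKM, per the file headers, with 1 value per gene; the submitters' processing notes list HISAT2, Cuffdiff and GRCm38. No source used here states versions, annotation release, library kit or strandedness. FPKM depends on how fragments are divided among isoforms and copies, and an exact 0 can be a failed estimate. The members and gene lists were chosen with earlier results of these data known. Genes outside the 10 were named as the 2 highest and 2 lowest of each list with a mean FPKM of at least 1, plus 12 genes that the rule lists by name, with exceptions stated; 1 gene that the rule names is not reported here.

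The log2 change used a pseudocount of 1, which understates changes of low genes. With 1 library per concentration no test was possible, and likeness in pattern over 2 libraries cannot be measured. GENCODE M21 (GRCm38) held 99.4% of the gene identifiers. Fragment totals were fitted on low values of single-transcript genes of at least 800 nt, of which 94.9% and 93.9% fell within 0.1 of a whole fragment, with fragment lengths of 290 and 270 nt. The fit was tested on simulated data. Alternatives were other pseudocounts, filters, thresholds and scalings, and summing rows of 1 symbol. Scripts ran in Python 3.11.15 with pandas 2.3.3, NumPy 2.4.6, matplotlib 3.10.9 and SciPy 1.17.1.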

Additional observations from a re-analysis of the deposited data

How the results depend on the processing

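The count of members at least 1.5-fold apart was 0 in both directions under all 10 alternatives, and their median log2 change ran from 0.04 to 0.12. Of the 10 genes, 9 kept their direction under the 8 alternatives of pseudocount, filter, scaling and row summing; Rbl2 turned from -0.03 to 0.03 and 0.01 under the 2 rescalings. Rescaling to the same sum moved the median of all genes from -0.02 to 0.04. Over all genes, 247 were higher and 318 lower at 1.5-fold. A pseudocount of 0.1 gave 524 lower, and one of 5 gave 93 higher and 91 lower. Leaving out the filter gave 442 and 550, a filter at 5 FPKM 76 and 129, a threshold of 5/4 689 and 969, and a 2-fold threshold 113 and 106. Pseudocount, filter and threshold change these counts by construction. No paired analysis was possible because each concentration has a single library. Without replicates, a difference between libraries cannot be told apart from one between cultures.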

Other observations

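Genes of mitosis, which mark dividing cells, were abundant at both concentrations. All 10 listed markers had a mean of at least 1 FPKM, from 29.2 to 211 FPKM at 2.8 mM and from 28.3 to 211 FPKM at 25 mM, with a median log2 change of 0.04. Mki67, whose product Ki-67 is absent from resting cells, was at 71.5 and 64.7 FPKM (-0.14), and Top2a, for the topoisomerase that untangles chromosomes, at 211 and 211 FPKM (0.00). Plk1, a mitotic kinase gene, was at 57.5 and 63.5 FPKM (0.14).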
